A study of Mus musculus with 9 samples.

Results

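The clustered protocadherins are cell-surface adhesion proteins encoded by 3 gene clusters, alpha, beta and gamma, that lie side by side on mouse chromosome 18. All genes listed under a Pcdha, Pcdhb or Pcdhg symbol were taken, which gave 60 of the 24341 genes in the deposited tables. The alpha cluster contributed 16 genes, the beta cluster 22 and the gamma cluster 22. The gamma genes fall into 12 of the A type, 7 of the B type and 3 of the C type, and the alpha genes include 2 of the C type. In the RefSeq table of assembly GRCm38.p6 the alpha genes begin at position 36930285, the beta genes span 37264998 to 37521419, and the gamma genes span 37661775 to 37841873. All 60 genes were matched there. Pcdha6-g and Pcdha7-g, counted as alpha genes beside Pcdha6 and Pcdha7, run to 37841873 at the end of the gamma cluster. Each of these entries had 1 read over all 9 samples.

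Each alpha or gamma isoform starts from its own promoter at a variable exon that encodes the extracellular and membrane-spanning parts, and is spliced to constant exons shared by its cluster. Each beta gene is a single variable exon without a shared constant part. The proteins bind isoforms of the same kind on neighbouring cells, and neurons use the combination they express to tell their own branches from those of other cells. In neurons most alternative isoforms are switched on promoter by promoter, whereas C-type isoforms are regulated apart from them. CTCF and cohesin loop the active promoters to distant enhancers, and Smchd1 and DNA methylation keep promoters silent.

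RNA-Seq was performed on mouse embryonic fibroblasts (MEFs) of strain C57BL/6 grown in DMEM with 10% FBS, with 3 samples each of WT, Atm-/- and Sirt6-/-. The study's methods describe the Atm-/- and Sirt6-/- MEFs as immortalized and obtained from separate laboratories. The Atm-/- MEFs described there lacked p53 as well. The sample labels name Atm-/- alone, but their shared treatment text lists P53-/- and Atm-/-P53-/- mice. How the WT MEFs were derived for sequencing, and whether they were immortalized, was not stated. No ages are given, and each genotype may be 1 line. Genotype, loss of p53, immortalization and line therefore cannot be told apart. Nothing says that the samples of a genotype were separate cultures, so p-values measure the spread between these samples, which may be technical.

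Depth was 32187040 to 33837949 reads per sample. Sirt6 had 402 to 487 reads in WT and 4 to 7 in Sirt6-/-. Atm had 1536 to 1627 reads in WT and 3443 to 3768 in Atm-/-, and counts summed over a whole gene cannot show which exons were read, so the Atm-/- label could not be checked by its RNA. Trp53, which encodes p53, had 6563 to 7108 reads in WT and 806 to 946 in Atm-/-. The summed level of 10 fibroblast markers was 17822 to 21189 CPM (counts scaled to a common library size) in WT, 6203 to 6330 in Atm-/-, where Lum was at 0, and 16609 to 17014 in Sirt6-/-. The 10 neuron markers summed to 3.65 to 4.18 CPM in WT, 96.1 to 106 in Atm-/- and 79.8 to 87.9 in Sirt6-/-. Snap25, Stmn2, Elavl4 and Dcx, which mark neurons, were at 0 in WT and Sirt6-/-, and Dcx and Rbfox3 were at 0 in Atm-/-. The 6 glia and progenitor markers, led by the intermediate filament gene Nes, summed to 6.41 to 8.42 CPM in WT, 196 to 208 in Atm-/- and 192 to 211 in Sirt6-/-. The level of these markers differs between genotypes as well, and their part in the results below was not tested.

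The clusters differed in how much RNA they gave. Together the 60 genes had 117 to 121 CPM before normalization in WT, 135 to 146 in Atm-/- and 322 to 329 in Sirt6-/-. The gamma cluster supplied 92.5% to 93.5% of them in WT, 84.9% to 86.4% in Atm-/- and 75.5% to 75.6% in Sirt6-/-. The alpha cluster was almost silent, and 8 of its genes had no read in any of the 9 samples. The other 52 genes had at least 1 read.

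The beta cluster rose in both knockouts. Its summed reads were 264, 285 and 291 in WT, 715, 661 and 610 in Atm-/-, and 2579, 2531 and 2612 in Sirt6-/-. The genotypes did not overlap. After normalization by the trimmed mean of M-values (TMM) the sum was 8.88 ± 0.52 CPM (SD, n = 3) in WT, 19.2 ± 1.33 in Atm-/- and 78.6 ± 0.50 in Sirt6-/-. By edgeR's quasi-likelihood test the log2 fold change against WT was 1.10 (SE 0.11, adjusted p = 3.2e-07) in Atm-/- and 3.14 (SE 0.07, adjusted p = 2.3e-14) in Sirt6-/-. Compared directly, Atm-/- was lower than Sirt6-/- by a log2 fold change of -2.03 (SE 0.06, adjusted p = 6.4e-17). Calls at an adjusted p under 0.05 were frequent in these data. In the fits with cluster sums, 68.4% of all features tested were called between Atm-/- and WT, 76.6% between Sirt6-/- and WT and 75.9% between Atm-/- and Sirt6-/-.

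The gamma cluster rose only in Sirt6-/- by these tests. Its summed reads were 3832, 3576 and 3615 in WT, 4060, 4192 and 3752 in Atm-/-, and 8044, 7842 and 8089 in Sirt6-/-. In these raw reads one Atm-/- sample lay below the highest WT sample, and Sirt6-/- lay apart from both. After TMM the WT samples ran from 114 to 120 CPM and the Atm-/- samples from 111 to 120. Scaled by library totals, every Atm-/- sample lay above every WT sample. The normalized sum was 116 ± 3.26 CPM in WT, 116 ± 4.55 in Atm-/- and 244 ± 2.51 in Sirt6-/- (SD, n = 3). The log2 fold change against WT was -0.01 (SE 0.05, adjusted p = 0.81) in Atm-/- and 1.06 (SE 0.04, adjusted p = 2.3e-11) in Sirt6-/-, and the direct difference of Atm-/- from Sirt6-/- was -1.07 (SE 0.04, adjusted p = 2.8e-15). Scaling by library totals instead of TMM turned the Atm-/- value to 0.15 (adjusted p = 0.014). That scaling also moved the median log2 fold change of all genes from 0.02 to 0.18 in Atm-/-, from 0.02 to 0.11 in Sirt6-/-, and from 0.00 to 0.06 between Atm-/- and Sirt6-/-.

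The alpha cluster stayed near the limit of detection. Its 16 genes together had 4, 3 and 2 reads in WT, 5, 0 and 4 in Atm-/-, and 14, 14 and 13 in Sirt6-/-. The Sirt6-/- samples lay above all others. The sum was higher in Sirt6-/- than in WT by a log2 fold change of 2.08 (SE 0.59, adjusted p = 0.0050) and lower in Atm-/- than in Sirt6-/- (-2.21, SE 0.70, adjusted p = 0.0073). Pcdhac1, a C-type isoform, supplied most of these reads, with 2 in every WT sample, 4, 0 and 4 in Atm-/-, and 8, 4 and 11 in Sirt6-/-. Pcdhac2, the C-type isoform known for spacing serotonin axons, had 2 reads in 1 WT sample and none elsewhere. Pcdha10 had 6, 1 and 0 reads in Sirt6-/- and none in the other genotypes. Pcdha5 had 0, 4 and 2 reads in Sirt6-/-, Pcdha9 had 4 in 1 Sirt6-/- sample, and Pcdha3 had 1 in 1 WT sample. No single alpha gene passed the filter on low counts, and 3 counts correspond to 0.0887 to 0.0932 CPM at this depth.

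**Figure D1:**
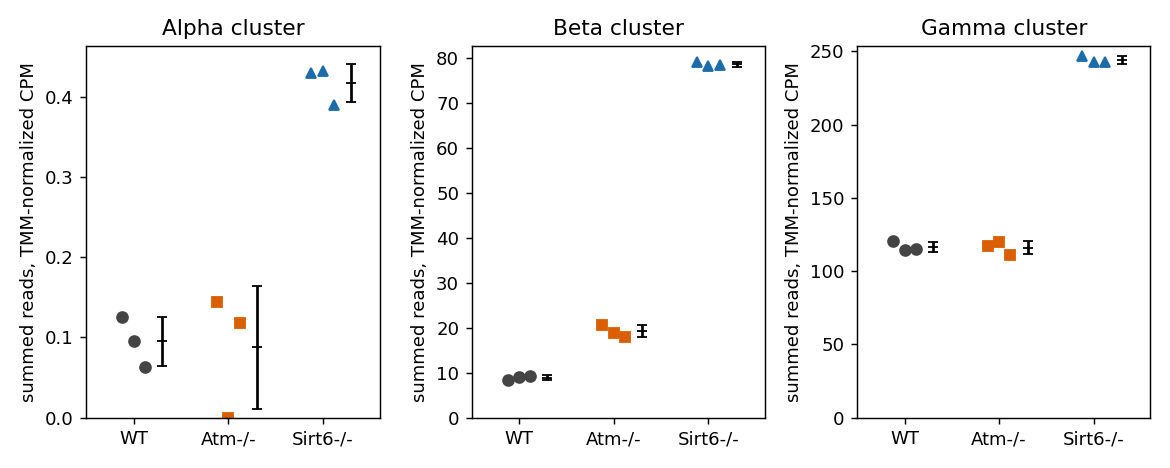
Summed reads of the alpha, beta and gamma protocadherin clusters in TMM-normalized CPM (linear axes from 0, a separate scale per cluster) for each of the 3 samples per genotype. Black bars give the mean ± SD. Beta rises from 8.88 CPM in WT to 19.2 in Atm-/- and 78.6 in Sirt6-/-, gamma is at 116 in WT and Atm-/- and at 244 in Sirt6-/-, and alpha stays under 1 CPM.

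Many single genes were too low to test. Of the 60 genes, 26 passed the filter between Atm-/- and WT, 31 between Sirt6-/- and WT and 31 between Atm-/- and Sirt6-/-, while 26 passed in no comparison. A gene that passed through the genotype in which it is high had to differ, so the counts below describe the genes tested and support nothing about the rest. Between Atm-/- and WT, 14 were called, 10 higher and 4 lower, beside 68.4% of all genes called, 34.7% higher and 33.6% lower. Between Sirt6-/- and WT, 28 were called, 25 higher and 3 lower, beside 76.6% of all genes called, 39.2% higher and 37.4% lower. Between Atm-/- and Sirt6-/-, 23 were called, 3 higher and 20 lower in Atm-/-, beside 75.8% of all genes called, 38.0% higher and 37.8% lower. The samples did not overlap for 16 of the 26 genes in Atm-/- against WT, for 28 of the 31 in Sirt6-/- against WT and for 26 of the 31 in the direct comparison, beside 74.6%, 79.0% and 78.1% of all genes tested.

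The median log2 fold change of the protocadherins tested was 0.45 in Atm-/- and 2.51 in Sirt6-/- against WT, beside 0.02 for all genes tested in each. The plot of fold changes along the clusters shows both knockouts, which share the WT samples.

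**Figure D2:**
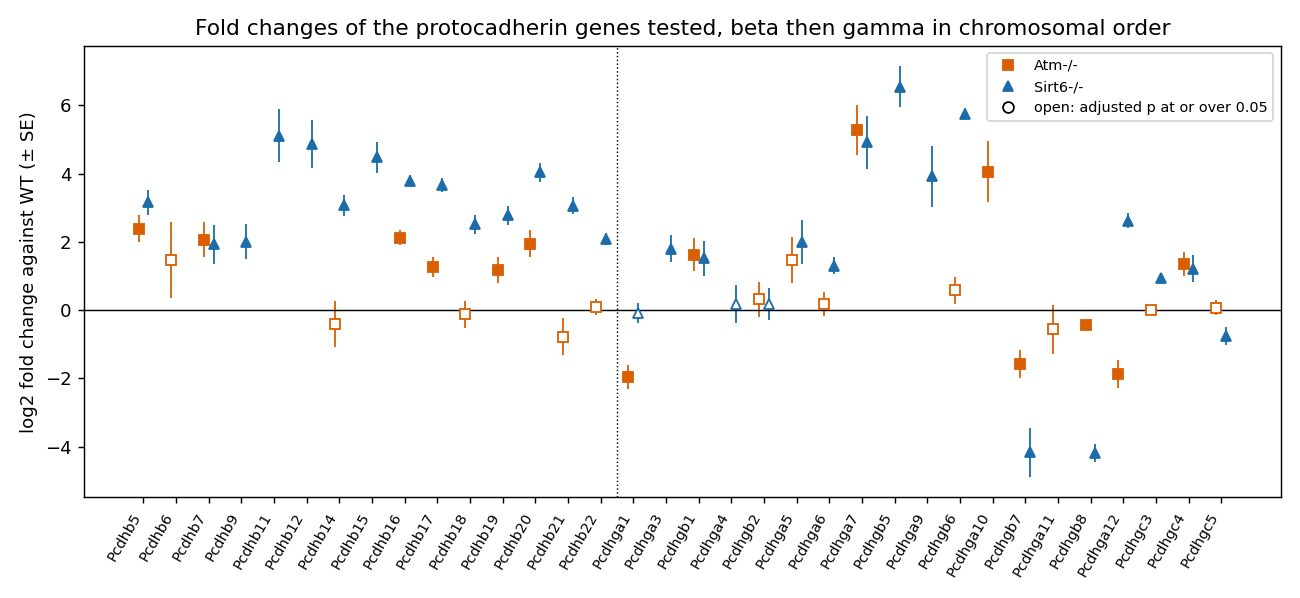
Log2 fold change against WT (± SE, edgeR) of each beta and gamma protocadherin that passed the filter on low counts, in chromosomal order with a dotted line between the clusters. Filled symbols have an adjusted p under 0.05. All 14 beta genes tested in Sirt6-/- lie above 0, whereas the gamma genes run from -4.19 for Pcdhgb8 to 6.55 for Pcdhgb5. Some genes, among them Pcdhb11, Pcdhb12, Pcdhb15 and Pcdhgb5, passed the filter only because Sirt6-/- is high, so their rise was fixed by it.

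Within the beta cluster the genes nearest the gamma cluster gave most of the RNA in every genotype. Pcdhb14 to Pcdhb22 held 85.6% to 91.4% of beta reads in WT, 80.9% to 81.6% in Atm-/- and 88.8% to 91.2% in Sirt6-/-. All 14 beta genes tested rose in Sirt6-/-, with a median log2 fold change of 3.12 and a range from 1.93 to 5.12. They include Pcdhb11, Pcdhb12 and Pcdhb15, with means of 0.667, 1.33 and 2.67 reads in WT. Those passed the filter only through Sirt6-/-, so their rise was fixed by it, and they set the top of the range. In Atm-/- 6 of 11 beta genes tested rose and none fell, with a median of 1.26. Pcdhb7, with a mean of 5.33 reads in WT, passed there only through Atm-/-. Compared directly, 13 of 14 were lower in Atm-/- than in Sirt6-/-, and the exception was Pcdhb7. Over all genes tested, 39.2% were higher in Sirt6-/- and 34.7% in Atm-/- against WT, and 37.8% were lower in Atm-/- than in Sirt6-/-.

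Pcdhb17, which lies at chromosome 18, 37485021 in the beta cluster, was among the 3 highest beta genes per length in every genotype. It had 26, 34 and 49 reads in WT, 113, 98 and 77 in Atm-/-, and 496, 533 and 422 in Sirt6-/-. The genotypes did not overlap. The log2 fold change was 1.26 (SE 0.29, adjusted p = 0.0013) in Atm-/- and 3.68 (SE 0.20, adjusted p = 4.0e-10) in Sirt6-/-. Its neighbour Pcdhb16 had 32, 34 and 31 reads in WT, 172, 148 and 146 in Atm-/-, and 408, 474 and 524 in Sirt6-/-. It rose by 2.12 (SE 0.22, adjusted p = 8.1e-07) in Atm-/- and 3.80 (SE 0.17, adjusted p = 3.7e-11) in Sirt6-/- on the log2 scale. Both genes encode full beta isoforms with no shared constant part, so nearly all of their sequence is their own.

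Pcdhb20 was among the 3 highest beta genes per length in both knockouts. It had 8, 34 and 22 reads in WT, 103, 101 and 70 in Atm-/-, and 399, 317 and 385 in Sirt6-/-. The log2 fold changes were 1.95 (SE 0.39, adjusted p = 0.00045) and 4.04 (SE 0.29, adjusted p = 7.1e-09). Pcdhb22, the beta gene with the highest level per length in WT, moved less, with 58, 78 and 69 reads in WT, 92, 75 and 74 in Atm-/-, and 303, 290 and 314 in Sirt6-/-. WT and Atm-/- overlapped for it. It rose in Sirt6-/- by 2.09 (SE 0.17, adjusted p = 3.1e-08), and its value in Atm-/- was 0.10 (SE 0.24, adjusted p = 0.74).

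Pcdhb21 separated the knockouts. It had 29, 21 and 19 reads in WT, 7, 7 and 30 in Atm-/-, and 229, 160 and 212 in Sirt6-/-. One Atm-/- sample stood above every WT sample and the other two below. It rose in Sirt6-/- by 3.06 (SE 0.25, adjusted p = 3.6e-08) on the log2 scale, its value in Atm-/- was -0.77 (SE 0.54, adjusted p = 0.22), and the direct difference was -3.82 (SE 0.35, adjusted p = 2.9e-09), which was -4.89 without Atm-/- replicate 3, the highest of that genotype. In the GENCODE M21 transcripts 7.73% of the 100-base windows of Pcdhb21 were found in other members. That transcript had 4606 windows beside a listed length of 2712 bases. By the RefSeq positions the genes do not overlap, with Pcdhb21 ending at 37516363 and Pcdhb22 starting at 37518353. Whether shared sequence affected the reads was not tested.

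The beta genes far from the gamma cluster were low. Pcdhb5 was the highest of them in Atm-/-, with 11, 6 and 8 reads in WT, 55, 49 and 41 in Atm-/-, and 75, 89 and 70 in Sirt6-/-. It rose in both knockouts, by 2.38 (SE 0.40, adjusted p = 9.0e-05) and 3.16 (SE 0.37, adjusted p = 1.8e-06). Pcdhb7 had 8, 2 and 6 reads in WT, 30, 27 and 18 in Atm-/-, and 28, 23 and 13 in Sirt6-/-. The knockouts overlapped for it and both lay above WT, with log2 fold changes of 2.07 (SE 0.52, adjusted p = 0.0028) and 1.93 (SE 0.56, adjusted p = 0.0063).

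Pcdhb11 and Pcdhb12 were near 0 in WT and Atm-/- and clearly present in Sirt6-/-. Pcdhb11 had 0, 2 and 0 reads in WT, 6 in every Atm-/- sample, and 20, 31 and 34 in Sirt6-/-, and its pooled ratio of Sirt6-/- to WT was 43.6 with a 95% exact interval from 7.32 to 1741. Its fitted log2 fold change of 5.12 was 7.81 without WT replicate 2, the only WT sample with reads. Pcdhb12 had 0, 0 and 4 reads in WT, 4, 2 and 0 in Atm-/-, and 55, 36 and 42 in Sirt6-/-. Its fitted log2 fold change in Sirt6-/- was 4.88 (SE 0.70, adjusted p = 1.7e-05) and was 8.45 without WT replicate 3, the only WT sample with reads. Intervals of such ratios use library totals, take 2 reads as 1 fragment because both mates of a pair appear to have been counted, and cover counting error only. Pcdhb1, the beta gene farthest from the gamma cluster, had 2 reads in 1 WT sample and none elsewhere.

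**Figure D3:**
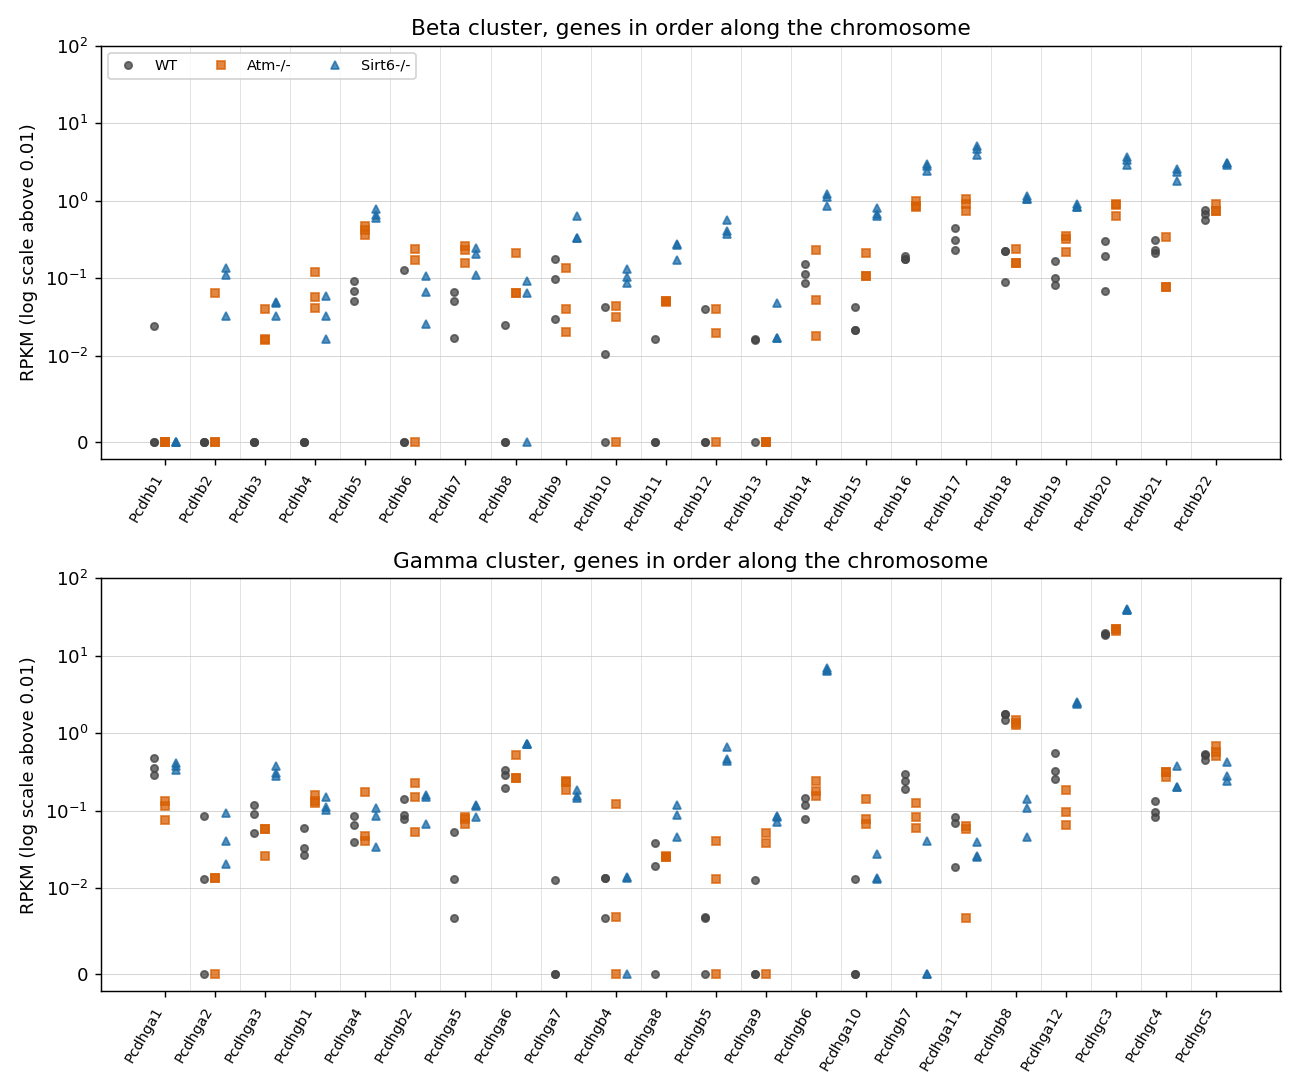
RPKM (reads per kilobase of listed length and library size, as deposited) of every beta and gamma protocadherin in each of the 9 samples, in chromosomal order. The vertical axis is logarithmic above 0.01 and linear below it, so that samples at 0 are shown. Pcdhgc3 is the highest gene in every sample, Pcdhb14 to Pcdhb22 have the highest beta means in Sirt6-/-, and Pcdhgb8 and Pcdhgb6 swap places between Sirt6-/- and the other genotypes.

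In the gamma cluster 1 isoform carried most reads. Pcdhgc3, a C-type isoform known to be expressed widely outside the nervous system and to bind the Wnt pathway scaffold Axin1, had 3146, 3018 and 2922 reads in WT, 3423, 3491 and 3200 in Atm-/-, and 6085, 5866 and 6161 in Sirt6-/-. Its level per length was 19.3 ± 0.559 RPKM in WT, 21.9 ± 0.645 in Atm-/- and 39.4 ± 0.690 in Sirt6-/- (SD, n = 3). Its log2 fold change was 0.02 (SE 0.05, adjusted p = 0.78) in Atm-/- and 0.94 (SE 0.05, adjusted p = 1.1e-10) in Sirt6-/-. As a share of gamma reads per kilobase it took 82.4% ± 1.82 in WT, 84.2% ± 1.02 in Atm-/- and 75.8% ± 0.684 in Sirt6-/-.

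How reads of the shared gamma exons were given to isoforms bears on that share. In the gene models, Pcdhgc3 shares 44.1% of its 100-base windows with other members, and the other gamma genes are similar except for Pcdhgb8 with 14.4%. The transcript matched for Pcdhgb8 had only 2697 windows beside a listed length of 4617 bases, so its value may not describe the listed gene. Several gamma genes had 0 to 2 reads in samples whose gamma sum was 3576 to 8089, so reads of the constant exons were not spread over all isoforms. Whether such reads were left out or given to 1 isoform, which could be Pcdhgc3, cannot be told apart from the counts. With Pcdhgc3 left out, an alternative chosen after seeing the data, the gamma sum changed by -0.17 (SE 0.11, adjusted p = 0.16) in Atm-/- and 1.54 (SE 0.08, adjusted p = 2.8e-10) in Sirt6-/- against WT on the log2 scale.

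The other C-type gamma isoforms were low. Pcdhgc4, which is needed for the survival of interneurons, had 23, 16 and 14 reads in WT, 52, 46 and 51 in Atm-/-, and 61, 33 and 34 in Sirt6-/-. Both knockouts lay above WT, with log2 fold changes of 1.35 (SE 0.34, adjusted p = 0.0028) and 1.22 (SE 0.40, adjusted p = 0.012), but without the highest Sirt6-/- sample, replicate 1, the latter was 0.86 (adjusted p = 0.099). Pcdhgc5 had 71, 83 and 84 reads in WT, 105, 91 and 78 in Atm-/-, and 65, 37 and 44 in Sirt6-/-. It fell in Sirt6-/- by 0.76 on the log2 scale (SE 0.28, adjusted p = 0.023) and its value in Atm-/- was 0.06 (SE 0.22, adjusted p = 0.81). The fall lost its call when WT replicate 3 (adjusted p = 0.057), Sirt6-/- replicate 2 (0.086) or Sirt6-/- replicate 3 (0.075) was left out.

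Among the alternative A and B isoforms, Pcdhgb8 was the leading one in WT and Atm-/-, and Pcdhgb6 was the leading one in Sirt6-/-. Other main isoforms were shared in part. Pcdhga12 took a mean of 10.6% of the A and B reads per kilobase in WT, 3.51% in Atm-/- and 20.6% in Sirt6-/-. In the same order Pcdhga6 took 7.75%, 10.7% and 6.03%, Pcdhga1 took 10.6%, 3.29% and 3.13%, and Pcdhgb7 took 6.94%, 2.85% and 0.11%. Pcdhgb8 and Pcdhgb6 both belong to the B type and lie close together with 3 genes between them, with Pcdhgb6 starting at 37742094 and Pcdhgb8 at 37761801. In the GENCODE M21 annotation Pcdhgb8 is a polymorphic pseudogene.

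Pcdhgb8 had 278, 230 and 273 reads in WT, 196, 231 and 203 in Atm-/-, and 21, 16 and 7 in Sirt6-/-. WT and Atm-/- overlapped, and Sirt6-/- lay far below. It fell in Sirt6-/- by 4.19 on the log2 scale (SE 0.28, adjusted p = 3.0e-09). It fell by 0.45 in Atm-/- (SE 0.14, adjusted p = 0.010), which was -0.28 (adjusted p = 0.082) with library totals. Pcdhgb6 showed the opposite pattern, with 19, 12 and 23 reads in WT, 24, 28 and 37 in Atm-/-, and 997, 1051 and 998 in Sirt6-/-. It rose in Sirt6-/- by 5.76 (SE 0.16, adjusted p = 1.5e-13), and its value in Atm-/- was 0.58 (SE 0.40, adjusted p = 0.21). The direct differences of Atm-/- from Sirt6-/- were 3.76 (SE 0.28, adjusted p = 1.0e-10) for Pcdhgb8 and -5.16 (SE 0.14, adjusted p = 4.5e-18) for Pcdhgb6.

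As shares of the reads per kilobase of all A and B gamma isoforms, Pcdhgb8 took 48.0% ± 2.17 in WT, 43.3% ± 4.12 in Atm-/- and 0.39% to 1.18% in the Sirt6-/- samples. Pcdhgb6 took 3.21% ± 0.619 in WT, 6.15% ± 2.15 in Atm-/- and 55.1% ± 0.613 in Sirt6-/- (SD, n = 3). The leading isoforms were chosen from these values, which are given as a description.

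**Figure D4:**
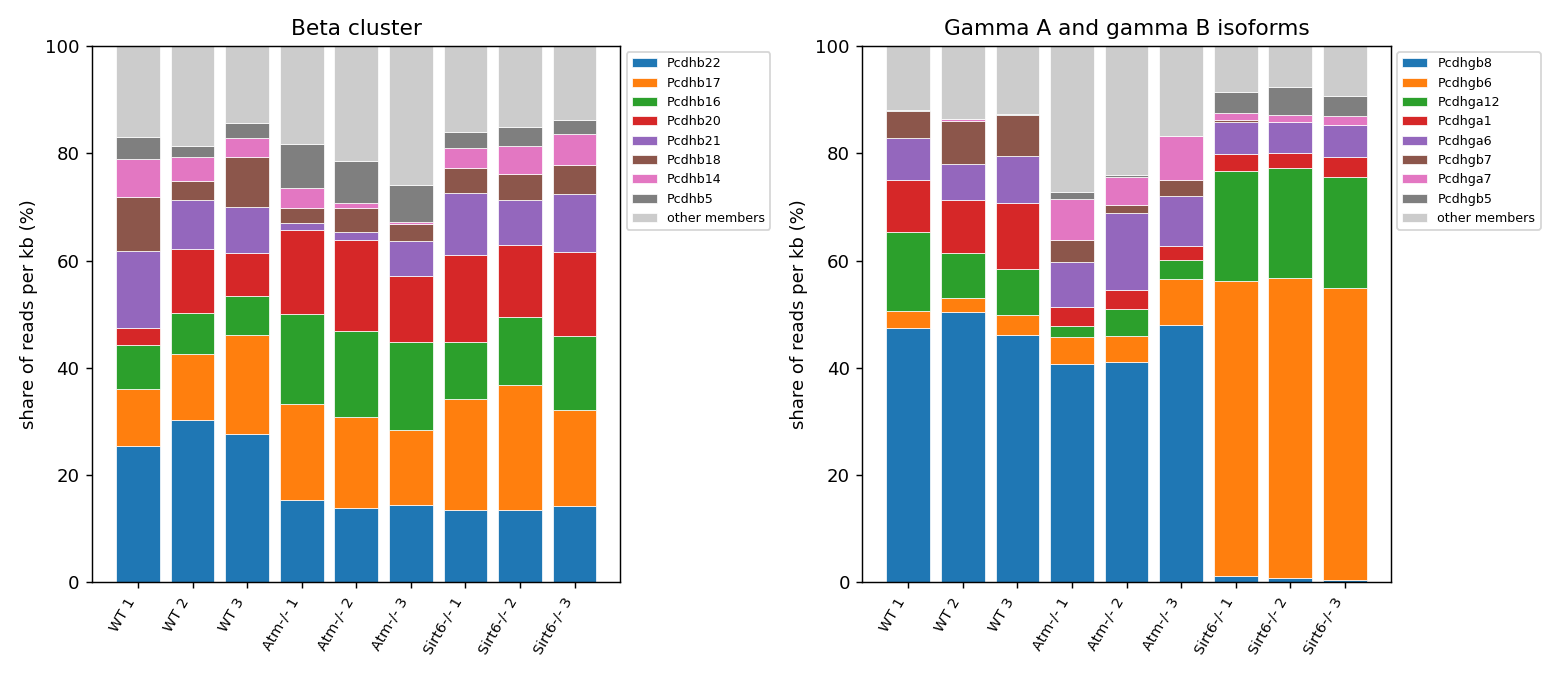
Share of each isoform in percent of reads per kilobase, 1 stacked bar per sample, for the beta cluster (left) and the gamma A and gamma B isoforms without the C type (right). Members not named are summed in light grey. Pcdhgb8 takes 40.8% to 50.3% in the WT and Atm-/- samples, and Pcdhgb6 takes 54.6% to 55.8% in the Sirt6-/- samples.

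Pcdhgb7, which lies between Pcdhgb6 and Pcdhgb8, fell in both knockouts. It had 29, 36 and 45 reads in WT, 19, 9 and 12 in Atm-/-, and 6, 0 and 0 in Sirt6-/-. The genotypes did not overlap. The log2 fold changes were -1.59 (SE 0.41, adjusted p = 0.0032) and -4.17 (SE 0.72, adjusted p = 0.00010), and the latter ranged from -8.22 to -3.60 when 1 sample was left out, with -8.22 reached without Sirt6-/- replicate 1, the only one with reads. Pcdhgb5 rose in Sirt6-/- from almost nothing, with 1, 0 and 1 reads in WT, 6, 2 and 0 in Atm-/-, and 68, 96 and 66 in Sirt6-/-. Its pooled ratio of Sirt6-/- to WT was 118 with a 95% exact interval from 20.8 to 4698. That interval takes the 2 WT reads as 1 fragment, although they lie in different samples. With every read counted apart the interval was 32.3 to 980. Pcdhgb2, another low B isoform, had 14, 12 and 22 reads in WT, 23, 35 and 8 in Atm-/-, and 24, 10 and 23 in Sirt6-/-, and the genotypes overlapped.

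Among the A isoforms, Pcdhga12 moved in opposite directions. It had 95, 43 and 55 reads in WT, 11, 31 and 16 in Atm-/-, and 402, 421 and 410 in Sirt6-/-. The 3 genotypes did not overlap. It fell by 1.86 in Atm-/- (SE 0.42, adjusted p = 0.0011) and rose by 2.62 in Sirt6-/- (SE 0.21, adjusted p = 3.3e-08) on the log2 scale. Pcdhga1, the first gene of the cluster, had 55, 44 and 72 reads in WT, 17, 20 and 11 in Atm-/-, and 55, 49 and 63 in Sirt6-/-. It fell in Atm-/- by 1.96 (SE 0.36, adjusted p = 0.00022), and its value in Sirt6-/- was -0.09 (SE 0.28, adjusted p = 0.79). Pcdhga6 had 45, 30 and 51 reads in WT, 40, 79 and 39 in Atm-/-, and 107 to 109 in Sirt6-/-. It rose in Sirt6-/- by 1.30 (SE 0.25, adjusted p = 0.00029), and its value in Atm-/- was 0.19 (SE 0.35, adjusted p = 0.65).

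Pcdhga7 and Pcdhga10 were near 0 in WT and higher in Atm-/-. Pcdhga7 had 0, 2 and 0 reads in WT, 37, 29 and 35 in Atm-/-, and 22, 23 and 29 in Sirt6-/-. Its pooled ratio to WT was 51.4 (95% exact interval 8.73 to 2052) in Atm-/- and 37.9 (6.40 to 1539) in Sirt6-/-, and the direct log2 difference of the knockouts was 0.38 (SE 0.36, adjusted p = 0.35). Pcdhga10 had 0, 2 and 0 reads in WT, 21, 12 and 10 in Atm-/-, and 2, 4 and 2 in Sirt6-/-. Its ratio in Atm-/- to WT was 21.9 (95% exact interval 3.44 to 885), and Atm-/- was higher than Sirt6-/- by 2.30 on the log2 scale (SE 0.67, adjusted p = 0.0040). It was the only A isoform called higher in Atm-/- than in Sirt6-/-, and its 43 reads in the 3 Atm-/- samples were few. For both genes WT replicate 2 was the only WT sample with reads, and without it the fitted log2 fold changes in Atm-/- moved from 5.29 to 8.03 for Pcdhga7 and from 4.06 to 6.80 for Pcdhga10, and in Sirt6-/- from 4.92 to 7.61 for Pcdhga7.

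Isoform use was tested apart from the level of the cluster by measuring each gene relative to the summed reads of its cluster in the same sample. Pcdhgc3 supplied most of the gamma sum, so the open question about reads of the shared gamma exons applies to gamma use as well. Between Atm-/- and WT, 13 of 26 genes changed in use, 6 up and 7 down, beside 68.4% of all rows called in that fit. Between Sirt6-/- and WT, 15 of 31 changed, 9 up and 6 down, beside 76.5%, and between the knockouts 21 of 31 changed, 11 up and 10 down, beside 75.8%. No test compared these shares with the background. Since shares sum to 1, a leading isoform moves the others.

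In the beta cluster 5 of 14 genes changed in use in Sirt6-/-, although all 14 rose in level. For Pcdhb11, Pcdhb12 and Pcdhb15 that rise in level was fixed by the filter. Pcdhb22 fell in use by 1.05 on the log2 scale in Sirt6-/- (SE 0.17, adjusted p = 4.1e-05) and by 1.01 in Atm-/- (SE 0.23, adjusted p = 0.0012). Its share of beta reads per kilobase was 27.8% ± 2.41 in WT, 14.6% ± 0.805 in Atm-/- and 13.5% to 14.2% in Sirt6-/-. Pcdhb16 rose in use in both, by 1.02 (SE 0.22, adjusted p = 0.00079) in Atm-/- and 0.66 (SE 0.18, adjusted p = 0.0045) in Sirt6-/-. Its share was 7.69% ± 0.456 in WT, 16.4% ± 0.438 in Atm-/- and 10.6% to 13.8% in Sirt6-/-. Pcdhb5 rose in use in Atm-/- by 1.28 (SE 0.40, adjusted p = 0.011), and its value in Sirt6-/- was 0.02 (SE 0.40, adjusted p = 0.96).

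In the gamma cluster the change in use in Sirt6-/- was large for several genes. Pcdhgb6 rose in use by 4.69 (SE 0.16, adjusted p = 1.9e-12) and Pcdhga12 by 1.56 (SE 0.20, adjusted p = 6.5e-06), whereas Pcdhgb8 fell by 5.25 (SE 0.27, adjusted p = 1.9e-10). Use also rose for Pcdhgb5 by 5.57 (SE 0.63, adjusted p = 1.5e-06), Pcdhga7 by 3.94 (SE 0.84, adjusted p = 0.00066) and Pcdhga9 by 2.95 (SE 0.96, adjusted p = 0.012), each from 2 reads in WT. Pcdhgb7, with reads in only 1 Sirt6-/- sample, fell in use by 5.21 (SE 0.70, adjusted p = 8.6e-06), and Pcdhga1 fell by 1.15 (SE 0.29, adjusted p = 0.0020). Pcdhgc3 fell in use by 0.13 (SE 0.04, adjusted p = 0.019), and Pcdhgc5 fell by 1.83 (SE 0.28, adjusted p = 3.2e-05). In Atm-/- Pcdhga12 fell in use by 1.85 (SE 0.41, adjusted p = 0.0010) and Pcdhgb8 by 0.43 (SE 0.14, adjusted p = 0.012), whereas Pcdhga7 rose by 5.31 (SE 0.73, adjusted p = 1.6e-05) and Pcdhga10 by 4.07 (SE 0.90, adjusted p = 0.0010), both from 2 reads in WT. Pcdhgb1 rose in use in Atm-/- by 1.65 (SE 0.49, adjusted p = 0.0080) and Pcdhgc4 by 1.37 (SE 0.34, adjusted p = 0.0025).

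The spread of reads over isoforms was summarised as an effective number, the exponential of the Shannon entropy of the shares, which equals the number of genes if all are used evenly. The beta cluster had 9.57 ± 0.609 effective isoforms in WT, 11.0 ± 0.539 in Atm-/- and 10.7 ± 0.130 in Sirt6-/- (SD, n = 3). An effective number tends to come out lower where few reads are counted. The beta reads per sample were 264 to 291 in WT, 610 to 715 in Atm-/- and 2531 to 2612 in Sirt6-/-. The part of read number in the lower WT value was not tested. The whole gamma cluster, with Pcdhgc3 in it, had 2.29 ± 0.150, 2.23 ± 0.121 and 2.62 ± 0.0353. Without the C type the gamma cluster had 6.29 ± 0.217 in WT, 8.29 ± 1.39 in Atm-/- and 4.73 ± 0.172 in Sirt6-/-. By an exact two-sided permutation test these 3 values differed with p = 0.1 in each pair of genotypes, the smallest p that 3 samples against 3 can give. The A and B isoforms were thus spread over more genes in every Atm-/- sample and over fewer in every Sirt6-/- sample than in WT, without reaching 0.05. For the beta cluster p was 0.1 for each knockout against WT and 0.3 between them, and for the whole gamma cluster it was 0.6 for Atm-/- against WT and 0.1 for both comparisons with Sirt6-/- by the same exact permutation test.

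**Figure D5:**
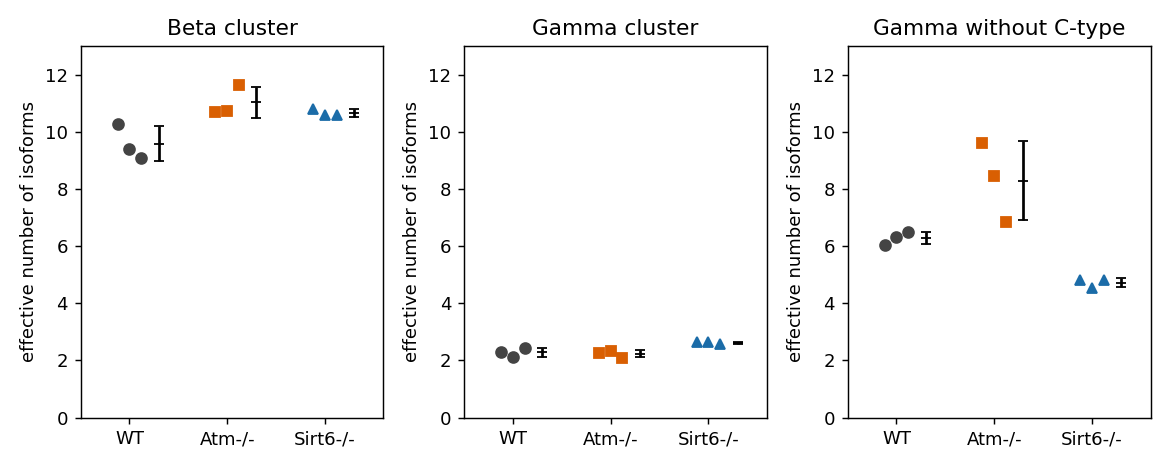
Effective number of isoforms (exponential of the Shannon entropy of shares of reads per kilobase) in each sample, for the beta cluster, the gamma cluster and the gamma cluster without its C-type isoforms. Black bars give the mean ± SD of 3 samples. In the right panel the Atm-/- samples lie between 6.83 and 9.59, WT between 6.05 and 6.48 and Sirt6-/- between 4.53 and 4.83.

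The distance between 2 isoform profiles was taken as the percentage of reads per kilobase that would have to move from one isoform to another to make them equal. For the gamma A and B isoforms the pairs of WT samples were 9.02% to 12.4% apart, pairs of Atm-/- samples 13.9% to 18.9% and pairs of Sirt6-/- samples 2.31% to 4.03%. Between genotypes the pairs were 25.2% to 29.8% apart for WT and Atm-/-, 64.9% to 73.2% for WT and Sirt6-/-, and 70.0% to 74.6% for Atm-/- and Sirt6-/-. For the beta cluster the pairs of WT samples were 20.5% to 24.0% apart, pairs of Atm-/- samples 10.4% to 17.3% and pairs of Sirt6-/- samples 7.39% to 8.96%. Between genotypes the beta pairs were 23.8% to 33.8% apart for WT and Sirt6-/-, 30.8% to 40.1% for WT and Atm-/-, and 18.4% to 26.0% for Atm-/- and Sirt6-/-. The range between the knockouts overlapped the range among WT samples. The range between WT and Sirt6-/- also touched the range among WT samples, which rest on 264 to 291 beta reads each.

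The 12 non-clustered protocadherins, related adhesion genes that each stand alone, were listed beside the clusters. Of 7 tested in Atm-/-, 5 rose and 2 fell, and of 5 tested in Sirt6-/-, 4 rose and 1 fell, beside 68.4% and 76.6% of all genes called. Pcdh19, a delta protocadherin whose human counterpart is mutated in an epilepsy, had 366 to 511 reads in WT, 1762 to 2009 in Atm-/- and 7010 to 7672 in Sirt6-/-. It rose by 1.98 (SE 0.10, adjusted p = 4.1e-10) and 4.01 (SE 0.09, adjusted p = 8.8e-15), in the same order of genotypes as the beta sum. Pcdh7 went the other way, with 8168 to 8851 reads in WT, 4499 to 5028 in Atm-/- and 544 to 645 in Sirt6-/-. The medians of the list were 1.98 in Atm-/- and 2.08 in Sirt6-/-, beside 0.02 for all genes tested in each. Pcdh17 and Pcdh20, among the 5 that rose in Atm-/-, had 0 reads in every WT sample. They passed the filter only through Atm-/-, so their rise was fixed by the filter and lifts the Atm-/- median.

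Of 27 listed regulators of the clusters 26 were in the tables and tested. In Atm-/- 11 rose, 7 fell and 8 were not called, and in Sirt6-/- 9 rose, 13 fell and 4 were not called, with medians of 0.05 and -0.09. Of all genes tested, 34.7% rose and 33.6% fell in Atm-/- and 39.2% rose and 37.4% fell in Sirt6-/-, with a median of 0.02 in each, and the same background applies to the partner and neighbour lists. The DNA methyltransferase gene Dnmt3a fell in both, from 2471 to 2773 reads in WT to 1000 to 1132 in Atm-/- and 900 to 1057 in Sirt6-/-. Tet1, which encodes an enzyme that oxidises methylated cytosine, had 0, 5 and 6 reads in WT, 92, 77 and 65 in Atm-/-, and 135, 143 and 162 in Sirt6-/-. Its relative Tet3 fell in both, by 0.43 (SE 0.06, adjusted p = 1.6e-05) and 0.73 (SE 0.05, adjusted p = 1.2e-08) on the log2 scale. Dnmt3b, another DNA methyltransferase gene, rose in Atm-/- by 0.83 (SE 0.26, adjusted p = 0.011), with a value of 0.63 (SE 0.29, adjusted p = 0.061) in Sirt6-/-. Dnmt1, the maintenance methyltransferase gene, was not called in either, with 0.04 (SE 0.05, adjusted p = 0.51) and -0.01 (SE 0.05, adjusted p = 0.86). Smchd1, a repressor of the clusters, changed little, by 0.16 (SE 0.05, adjusted p = 0.0088) in Atm-/- and -0.18 (SE 0.05, adjusted p = 0.0058) in Sirt6-/-. Ctcf had values of 0.00 (SE 0.05, adjusted p = 0.995) and -0.16 (SE 0.05, adjusted p = 0.0095). Among 18 genes for protein partners of the protocadherins, 4 rose and 12 fell in each knockout against WT, with medians of -0.33 and -0.38. Among 16 neighbouring genes on chromosome 18, 10 of 14 tested rose and 1 fell in Atm-/-, and 6 of 13 rose and 3 fell in Sirt6-/-, with medians of 0.52 and 0.19. Taf7, which lies between the beta and gamma clusters, fell in both, by 0.59 (SE 0.15, adjusted p = 0.0030) and 0.61 (SE 0.16, adjusted p = 0.0029).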

How the data were processed

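The authors deposited for each of the 9 samples a read count per gene, as raw counts, and RPKM, which they made by dividing the count by a listed transcript length and by the library size. Per the labels, poly(A) RNA was selected with oligo(dT) beads, primed with random hexamers and sequenced on Illumina, and the genome build was mm10. The aligner and counter, and whether strand was used, are not given in the sources used here. Whole-number counts of 1 and 3 occurred 2936 and 1663 times and counts of 2 and 4 occurred 5772 and 3133 times, so both mates of a pair appear to have been counted and a count of 2 may be 1 fragment.

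Each pair of genotypes was fitted on all genes with edgeR 4.0.16 in R 4.3.3 (limma 3.58.1 installed): filterByExpr, TMM, glmQLFit and glmQLFTest with a prior count of 0.125, and Benjamini-Hochberg adjustment over all genes tested, called under 0.05. Fold changes of genes near 0 depend on the prior count. For cluster sums the rows of a cluster were added, and for isoform use the offset was the log of the cluster's reads, without the alpha cluster, which had 0 reads in 1 sample. Shares used reads per kilobase of listed length. Shared sequence was measured on GENCODE M21 transcripts, matched for 58 of the 60 genes, and positions came from RefSeq, GRCm38.p6. Scripts were tested on simulated data. Named were the C-type isoforms, the 3 highest of each group in each genotype, and the 5 largest called rises and falls without overlap in each comparison, while other genes named were picked after their values were seen or come from the lists of related genes. The genes and lists were chosen with earlier results of these data known. Replicate numbers were not used to pair the samples in the main fits. Alternatives were DESeq2 1.42.0, other scalings and filters, all 9 samples in 1 fit, a replicate block, shares from read counts and leaving out each sample. Exact permutation tests and intervals used SciPy 1.17.1 and figures matplotlib 3.10.9.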

Additional observations from a re-analysis of the deposited data

Results flagged for a closer look

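Pcdhga12 was picked out because its effects against WT differed between the knockouts. It was lower in Atm-/- (log2 fold change -1.86) and higher in Sirt6-/- (2.62), and the direct test of Atm-/- against Sirt6-/- gave -4.47 (edgeR adjusted p = 1.6e-13). The direction held in all 3 samples of each knockout.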

How the results depend on the processing

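At a mean of at least 1 CPM, where fewer genes are tested, 7 protocadherins were called in Atm-/- and 17 in Sirt6-/- against WT, and 7 changed in use in Atm-/-. The gamma sum in Atm-/- against WT was 0.15 with library totals and ran from -0.030 to 0.025 when 1 sample was left out, positive without WT replicate 1 (0.011) or Atm-/- replicate 3 (0.025). The effective number of gamma isoforms differed by 2.01 (Atm-/- minus WT), -1.56 (Sirt6-/- minus WT) and 3.57 (Atm-/- minus Sirt6-/-) with the C type left out. With the C type kept, the gamma difference of Atm-/- minus WT ran from -0.137 to 0.0127 with 1 sample left out, positive without WT replicate 3 (0.0127) or Atm-/- replicate 3 (0.0082). With read counts in place of reads per kilobase, the beta difference of Atm-/- minus Sirt6-/- was -0.138, and the leading beta isoform took 24.3% in WT and 23.5% in Atm-/-. Leaving out 1 sample put the Atm-/- leading share at 16.2% to 17.4%. The leading gamma share without the C type was 48.0%, 43.3% and 55.1% in WT, Atm-/- and Sirt6-/-. The cause was not tested in these cases, beyond the construction of the alternative. Of the other alternatives for the cluster sums, 94 kept direction and side of the threshold. Counts of calls moved over all alternatives from 7 to 17 (Atm-/- against WT), 17 to 31 (Sirt6-/- against WT) and 18 to 28 (between the knockouts) for level, and from 7 to 16, 12 to 17 and 14 to 25 for use, so single genes gained or lost calls. Among alternatives for the called values of named genes 604 kept direction and call and 6 lost the call (Pcdhgb8 in Atm-/- with library totals, Pcdhgc4 and Pcdhgc5 in Sirt6-/- as given above, and Pcdhb5 between the knockouts without Sirt6-/- replicate 2, adjusted p = 0.056). Deviations of same-numbered samples of different genotypes were hardly correlated (-0.020 to 0.031). Between Atm-/- and Sirt6-/- the same-numbered pairs, at 0.018 to 0.031, lay above the differently numbered pairs, at -0.032 to 0.0003. Against WT the 2 kinds of pair overlapped for each knockout. With a replicate block, 14, 28 and 23 genes were called in Atm-/- against WT, Sirt6-/- against WT and Atm-/- against Sirt6-/-, and 15, 14 and 19 changed in use. Genes with few reads in a genotype had wide ranges with 1 sample left out: Pcdhga7 in Atm-/- 4.78 to 8.03 and in Sirt6-/- 4.39 to 7.61, Pcdhga10 in Atm-/- 3.55 to 6.80 and Pcdhb11 in Sirt6-/- 4.59 to 7.81, each highest without WT replicate 2, and Pcdhb12 in Sirt6-/- 4.32 to 8.45, highest without WT replicate 3. Depth limits the alpha genes and the low beta and gamma genes, where a group holds a handful of fragments.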
